A study of Mus musculus with 19 samples.

Results

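The unfolded protein response genes described here are 10 genes, *Ern1*, *Eif2ak3*, *Atf6*, *Xbp1*, *Atf4*, *Ddit3*, *Hspa5*, *Hsp90b1*, *Herpud1* and *Trib3*. They were chosen by name, and each symbol matched a single Ensembl gene among the 46078 genes of the deposited table of normalized counts. RNA sequencing had been done on 19 samples from female mice, 11 mammary glands and 8 mammary tumors, in 5 groups. MG WT (n = 3) were glands of wild-type mice of matched age. MG N and MG NP (n = 4 each) were glands without malignant lesions from tumor-bearing *N* and *NP* mice, and T N and T NP (n = 4 each) were tumors of *N* and *NP* mice. All *N* and *NP* mice carried *MMTV-neu*, in which the MMTV promoter drives the neu (Erbb2) oncogene in mammary epithelium, on a mixed FVB/C57/BALB/c background. *NP* mice were MMTV-neu;p53wm-R172H/+;Fsp-Cre, so that Cre, expressed under the *Fsp* promoter in fibroblasts, turned on the R172H mutant of p53 there. All T N samples and MG N replicate 1 were MMTV-neu;Fsp-Cre, whereas MG N replicates 2, 3 and 4 were MMTV-neu;p53wm-R172H/+ without Cre. The library names of T NP replicates 1 and 2 share a number, and it is not stated whether they came from 1 mouse. Their log2 values had a Pearson r of 0.989, against 0.983 to 0.9862 for the other pairs of T NP libraries.

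The unfolded protein response adjusts the endoplasmic reticulum (ER) to the load of proteins it has to fold. Its membrane sensors IRE1 (encoded by *Ern1*), PERK (*Eif2ak3*) and ATF6 respond when unfolded proteins draw the chaperone BiP (*Hspa5*) away from them. IRE1 splices *Xbp1* mRNA so that it encodes an active transcription factor, PERK slows translation and thereby favors synthesis of ATF4, which in turn raises *Ddit3* (CHOP), and cleaved ATF6 enters the nucleus. Secretory cells, such as the milk-producing epithelium of the mammary gland and plasma cells, are known for their large ER and for their need of XBP1. Gene counts do not show the splicing of *Xbp1*, the cleavage of ATF6 or the phosphorylation of PERK targets, so the values below are mRNA levels only.

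Values are normalized counts, that is read counts divided by a size factor for each library. The whole reads behind them could be recovered from the values of each library but T N replicate 3. There the size factor was close to 1, so recovery is not claimed from that library alone, and it was handled like the others. There were 20899152 to 27262440 reads per library in the 4 groups of *MMTV-neu* mice and 54677315 to 62645459 in MG WT. All 10 genes passed the filter on low counts in every comparison. The least-covered value was *Trib3* in MG NP replicate 3, with 61 reads, and *Hspa5* had at least 10796 reads in every library. A gene was called different when its adjusted p was under 0.05 by limma with Benjamini-Hochberg adjustment over all genes tested, and fold changes were taken after adding 1 to each value and going to log2.

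Marker genes showed that the 3 kinds of gland were not alike in composition. The 10 white adipocyte markers summed to 4967, 5958 and 4294 normalized counts in the 3 MG WT libraries, against 353957 to 496769 in MG N and 178349.7 to 443618.5 in MG NP. *Fabp4*, the most abundant of them in MG N, was at 1047 to 1429 in MG WT and at 88147.5 to 128649 in MG N. Adipocyte markers were thus low in the libraries labelled wild-type mammary gland, a tissue that normally holds much fat, and 5 of the 10 were at 10 or more normalized counts in all 3 of them, against 10 of 10 in MG N and MG NP. None of the 10 was at 0 in a gland. The 10 luminal epithelial markers summed to 130858 to 152736 in MG WT, 21863 to 37212 in MG N and 16108 to 41150.3 in MG NP, so that epithelial RNA was the larger share in MG WT. The 12 immediate-early genes, which rise within minutes of handling or stress, summed to 357266, 463376 and 456139.7 in MG WT, and to at most 17302.5 in any other library. Their most abundant gene in MG WT, *Fos*, was at 81338 to 100009 in MG WT and at 169.9 to 605 in the glands of *N* and *NP* mice. The 10 cytosolic heat-shock genes, led by *Hspa8*, also summed to more in MG WT (73808 to 95813) than in MG N (35125 to 45649) and MG NP (29329 to 66577). The range of *Hspa8* itself in MG WT overlapped with those in MG N and MG NP. Against MG WT, 2 of the 10 were called higher and 7 lower in MG N (all genes, 30.0% and 29.2%). In MG NP these were 0 and 5 (22.4% and 24.0%). How far composition, handling and genotype each set the differences from MG WT cannot be told apart in this design. In bulk tissue, fewer cells of a type and less RNA per cell cannot be told apart either.

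Skeletal muscle RNA was a further difference among glands. The 24 muscle markers summed to 847470.3, 6728578 and 3946273.5 normalized counts in MG NP replicates 1, 2 and 4, which was 3.64%, 19.6% and 11.4% of their reads. In MG NP replicate 3 the sum was 31114, or 0.134%, in MG N it was 40905, 51565, 23787 and 5196, and in MG WT it was 1166 to 1970.5. *Ttn*, the most abundant, reached 3103292 in MG NP replicate 2 and was at 646 in MG WT replicate 1. At 10 or more normalized counts in every library of the group were 22 of the 24 genes in MG NP, 15 in MG N and 12 in MG WT, where *Myoz1* was at 0 in replicate 1 and *Tnnc2* in replicate 3. The 10 plasma and B cell markers, led by *Igkc* in glands, summed to 32135 to 122423 in MG NP, 7265 to 87001 in MG N, 4897 to 10702 in MG WT, 216 to 12065 in T N and 381 to 2587 in T NP. Plasma cells are rich in ER, and these markers were lower in every T NP library than in any gland, whereas the range of T N overlapped with those of MG N and MG WT. The 7 T cell markers (led by *Lck* outside MG WT) summed to 377 to 5857.5 in the 11 glands and to 71.8 to 327 in tumors.

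Tumors differed from glands in most marker lists. Luminal markers, led by *Epcam* in T N and *Krt18* in T NP, summed to 97650.3 to 181815 in T N and 101741 to 138555 in T NP. A few abundant genes made up these sums, and the list was split: of its 10 genes, 6 were called higher and 4 lower in T N against MG N (all genes, 23.5% and 27.8%), 6 and 3 in T NP against MG NP (26.2% and 29.3%), 2 and 4 in T N against MG WT (25.7% and 30.6%) and 4 and 5 in T NP against MG WT (32.7% and 37.0%). *Foxa1* had a median of 3.2 normalized counts in T N and 4.3 in T NP, against 199.0 in MG N, 200.4 in MG NP and 3646 in MG WT, and *Krt19* and *Esr1* also had lower medians in both tumor groups than in any gland group. The 8 basal and myoepithelial markers (led by *Acta2* in tumors) summed to 1348 to 5056 in T N and 1985 to 3446 in T NP, below the 9256 to 23968 of MG N and MG NP and the 58751 to 72055 of MG WT. White adipocyte markers summed to 1599 to 10053 in T N and 3282 to 5424 in T NP. Fibroblast markers (10 genes, led by *Col3a1*) summed to 30358 to 270485.5 in T N, 27889 to 57933 in T NP, 134623 to 474881 in MG N, 65254 to 148719 in MG NP and 41542 to 67768 in MG WT. Macrophage markers (7 genes, led by *Lyz2*) summed to 10616 to 30679.5 in T N and 14418 to 24899.9 in T NP, and endothelial markers (6 genes, led by *Pecam1*) to 3481 to 5903 and 3261 to 5132. The corresponding sums in the 11 glands were 6486 to 56679 for macrophages and 14994 to 31426.5 for endothelium. The 7 milk protein genes, whose products pass through the ER, summed to 642980.5, 82301, 754427 and 126781.5 in T N replicates 1 to 4, to 342602 to 501973 in T NP and to at most 184024 in a gland. *Csn3* was the most abundant of them in tumors, at 81333.6 or more in each, and T N replicates 1 and 3 were high and replicates 2 and 4 low. Of the 6 milk protein genes tested in T N against MG N, 1 was called higher and 0 lower (all genes, 23.5% and 27.8%). Of the 7 tested in T NP against MG NP, these were 3 and 0 (26.2% and 29.3%). Any tumor to gland difference below therefore also compares tissues of different composition, and the part of composition in it was not tested except where stated.

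**Figure D1:**
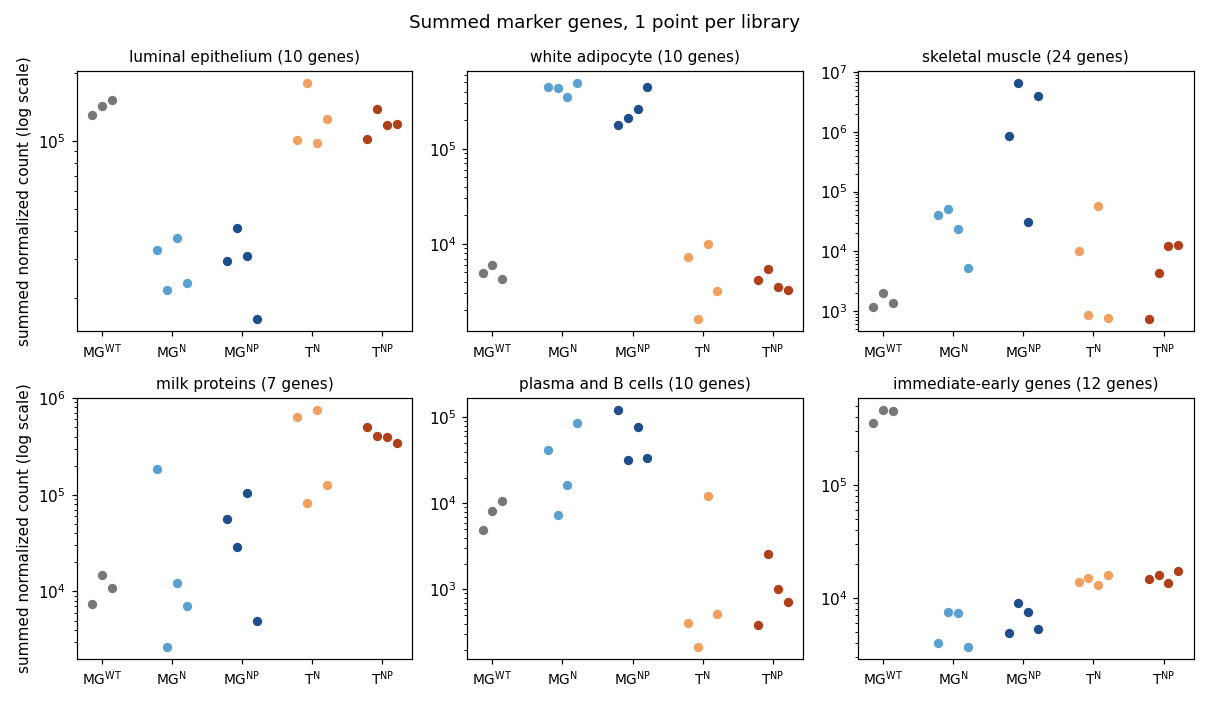
Summed normalized counts (log axis) of 6 marker lists in each of the 19 libraries, by group, with 1 point per library. The 3 MG WT libraries sat at 4294 to 5958 for adipocyte markers and at 357266 to 463376 for immediate-early genes, and 3 MG NP libraries were above 847470 for skeletal muscle.

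Per length and depth, the 10 genes spanned a wide range of levels. In MG WT, reads scaled by merged exon length and library depth (RPKM, mean ± SD, n = 3) were 187 ± 36.9 for *Hspa5*, 109 ± 17.8 for *Atf4*, 70.8 ± 15.3 for *Hsp90b1*, 52.3 ± 6.32 for *Xbp1* and 30.5 ± 4.36 for *Herpud1*. The sensors followed with RPKM of 18.6 ± 5.63 for *Ern1*, 11.2 ± 0.686 for *Atf6* and 7.86 ± 0.716 for *Eif2ak3*, and the PERK branch genes *Ddit3* (4.49 ± 0.798) and *Trib3* (2.39 ± 0.277) were lowest. Of neighbors in this order only *Hsp90b1* and *Xbp1* overlapped. In T N (n = 4) the order by mean RPKM was *Hspa5* (396 ± 66.3), *Xbp1* (319 ± 199.5), *Hsp90b1* (289 ± 34.1), *Atf4* (66.7 ± 12.8), *Herpud1* (61.3 ± 14.1), *Trib3* (25.8 ± 8.55), *Eif2ak3* (13.7 ± 2.30), *Atf6* (10.8 ± 2.14), *Ddit3* (9.33 ± 4.37) and *Ern1* (5.04 ± 0.347). Ranges of neighbors overlapped there except for *Hsp90b1* against *Atf4*, *Herpud1* against *Trib3* and *Ddit3* against *Ern1*. In T NP, *Xbp1* (427 ± 82.8) stood above *Hspa5* (367 ± 88.4) and *Hsp90b1* (255 ± 62.7), with overlapping ranges from each to the next. *Ern1* was thus the sixth by RPKM in MG WT and last in T N and T NP, whereas *Trib3* was last in MG WT and sixth in both tumor groups.

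Of the 3 sensors, *Ern1* was the one that set MG WT apart. *Ern1*, the kinase and RNase that splices *Xbp1*, was at 5106, 2699.7 and 4599 normalized counts in MG WT, at 1386, 1559.6, 1185 and 1626 in MG N and at 1640.5, 1893, 1451 and 1129.9 in MG NP. In tumors it was at 1225, 1033, 1118 and 1132 in T N and at 1145, 825, 868 and 1368 in T NP. All 3 MG WT libraries were above the other 16, although MG WT replicate 2 lay well below its group, and the 4 remaining groups overlapped with their neighbors. Against MG WT, *Ern1* fell by 1.48 ± 0.22 (log2, SE; adjusted p = 0.000761) in MG N and by 1.41 ± 0.27 (adjusted p = 0.00496) in MG NP, the latter not called once the muscle score was in the fit (-1.43). Tumors were not called against glands, with log2 fold changes of -0.34 (adjusted p = 0.0625, T N against MG N) and -0.55 (adjusted p = 0.0579, T NP against MG NP). The former passed the threshold without MG N replicate 3 (-0.43), the latter without MG NP replicate 4 or T NP replicate 4 (-0.68 each).

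*Eif2ak3*, which encodes the eIF2α kinase PERK, was higher in tumors. It was at 1386, 1155 and 1329.5 normalized counts in MG WT, at 1576, 1651.5, 1225 and 1519 in MG N and at 1493, 966, 1827 and 1028 in MG NP. The T N values were 2340.5, 1691, 2581 and 2415 and those of T NP 2637, 2385, 1834 and 2068. The lowest T N tumor lay just above the highest MG N gland and the lowest T NP tumor just above the highest MG NP gland, so neither pair of groups overlapped. The rise was log2 0.59 ± 0.17 in T N against MG N (adjusted p = 0.0179) and 0.78 ± 0.23 in T NP against MG NP (adjusted p = 0.0166). The former no longer passed without MG N replicate 3 (log2 0.49) or with replicate number as a block. Once the muscle score was in the fit, the log2 fold change in T NP against MG NP was -0.03, so its size cannot be told apart from the muscle content of MG NP.

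*Atf6* was level across all groups. Its normalized counts were 2639, 2694 and 3131 in MG WT, 3003, 2703, 2190.0 and 2663 in MG N, 2869, 2900.5, 2279 and 3312 in MG NP, 2431, 2397, 3567 and 2564 in T N and 3199.8, 2785, 2074 and 2681 in T NP. Every group overlapped with every other. No comparison called it, and its log2 fold changes lay between -0.13 (the difference of the tumor to gland differences) and 0.10 (MG NP against MG N).

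**Figure D2:**
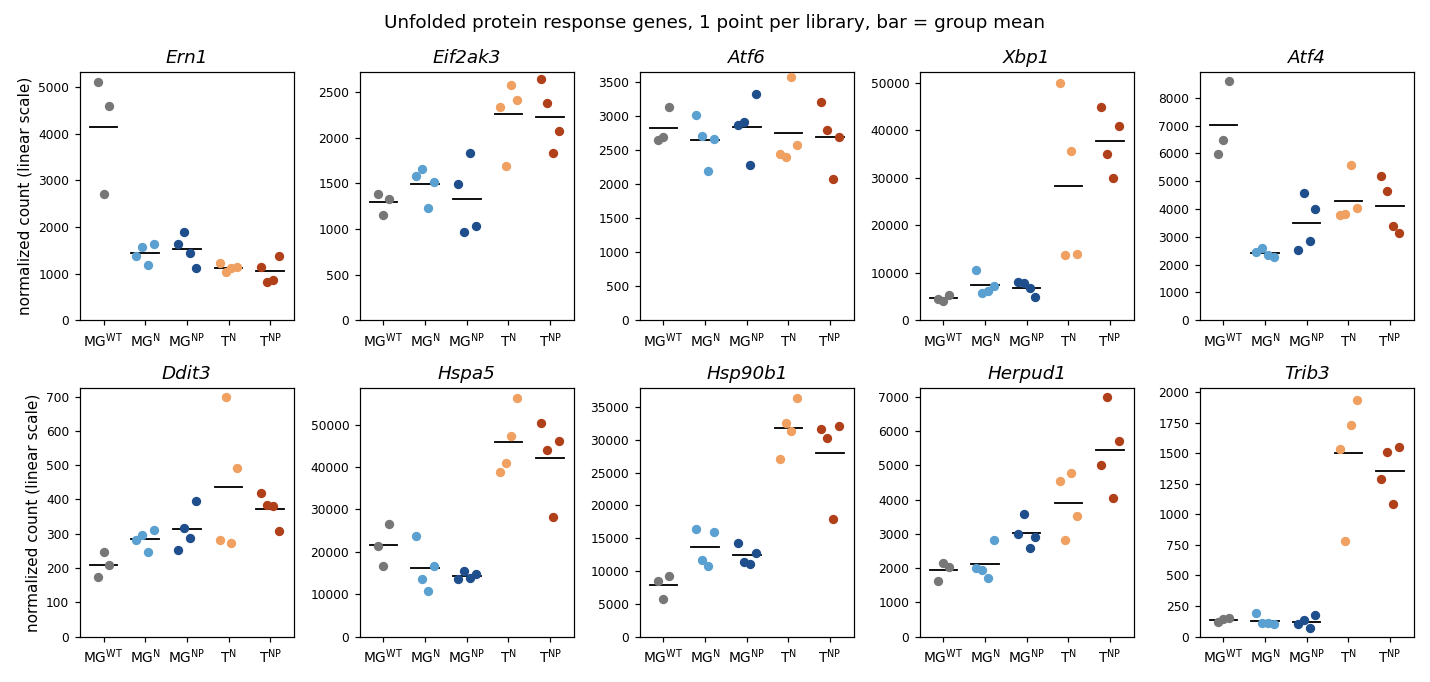
Normalized counts (linear axes from 0) of the 10 genes in each library, with 1 point per library and a bar at the group mean. *Trib3* was at 66.1 to 191.1 in the 11 glands and 786 to 1941 in the 8 tumors, *Atf6* was between 2074 and 3567 throughout, and *Ern1* was highest in the 3 MG WT libraries.

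Of the transcription factors, *Xbp1* differed most between tumors and glands. *Xbp1* was at 4460.4, 4029 and 5424 normalized counts in MG WT, at 10665, 5641, 6192.5 and 7174 in MG N and at 7967, 7788, 6759.8 and 5002.5 in MG NP. In tumors it was at 49993, 13737, 35709 and 14043.5 in T N and at 44938, 34947, 29961 and 40938 in T NP. Every tumor exceeded every gland, and within T N replicates 2 and 4 were low and replicates 1 and 3 high, whereas all 4 T NP tumors lay above the 2 low T N tumors. The 2 high T N tumors, replicates 1 and 3, were those with the high milk protein sums given above, and the part of secretory differentiation in the *Xbp1* level was not tested. Tumor was above gland 3.37-fold in T N against MG N (log2 1.75 ± 0.44, adjusted p = 0.0102) and 5.50-fold in T NP against MG NP (log2 2.46 ± 0.20, adjusted p = 3.73e-05). The difference between these differences was 0.71 (95% confidence interval -0.38 to 1.80, adjusted p = 0.789) and was not called. Among glands, *Xbp1* rose by 0.64 (log2, adjusted p = 0.0352 by limma) in MG N against MG WT, which no longer passed without MG N replicate 4 (0.64), MG WT replicate 1 (0.62) or MG WT replicate 2 (0.55). This call of *Xbp1* was also lost in a single fit of all 5 groups and with replicate number as a block. In MG NP against MG WT its log2 fold change was 0.56 (adjusted p = 0.0528). It passed in 5 of 18 alternatives, 1 of them without MG NP replicate 4 (0.70).

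*Atf4*, whose product drives amino acid and redox genes when eIF2α is phosphorylated, had its highest level in MG WT. It was at 5985, 6492 and 8615 normalized counts in MG WT, at 2448, 2594, 2339 and 2288 in MG N and at 2528.5, 4569, 2849.7 and 4018.5 in MG NP. In tumors it was at 3784.5, 3831, 5571 and 4032 in T N and at 5173, 4661, 3398 and 3140.1 in T NP. MG WT lay above all other libraries, MG N was low and tight, and MG NP replicates 2 and 4, the 2 with most muscle RNA, were the highest of their group. These 2 libraries had size factors of 0.7006 and 0.7744, against 1.0485 and 0.9233 in MG NP replicates 1 and 3. Their place in the group depends on this scaling. By RPKM, *Atf4* was at 46.0 to 56.5 in MG NP and at 39.0 to 42.0 in MG N, without overlap. *Atf4* fell by 1.52 ± 0.14 (log2, adjusted p = 5.7e-05) in MG N and by 1.03 ± 0.24 (adjusted p = 0.0117) in MG NP against MG WT, and the latter no longer passed without MG WT replicate 3 (-0.88) and was -1.79, still called, once the muscle score was in the fit. It rose 1.76-fold in T N against MG N (log2 0.81 ± 0.15, adjusted p = 0.00223) but was not called in T NP against MG NP (log2 0.24 ± 0.24, adjusted p = 0.419), where the groups overlapped. The difference between these 2 differences was -0.58 (95% confidence interval -1.19 to 0.04, adjusted p = 0.655).

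*Ddit3*, which encodes the stress factor CHOP, stayed at low counts. It was at 174, 245.5 and 208 normalized counts in MG WT, at 281.5, 298, 248 and 311 in MG N and at 252, 317, 287 and 396 in MG NP. The T N values were 281, 699, 274 and 492.5 and those of T NP 419, 384, 382 and 307. Every other library was above the 3 of MG WT, T N overlapped with MG N and T NP with MG NP, and T N replicates 2 and 4, the tumors with low *Xbp1* and low milk protein sums, had the highest values. Tumors were not called against glands (log2 0.51, adjusted p = 0.198 in T N against MG N; 0.26, adjusted p = 0.267 in T NP against MG NP). The rise of 0.45 in MG N against MG WT (adjusted p = 0.049 by limma) was at the edge of the threshold: it no longer passed without MG N replicate 1 (0.45), 2 (0.43) or 4 (0.40), or without MG WT replicate 1 (0.33) or 3 (0.45). This call was also lost with a pseudocount of 5, without the filter on low counts, with TMM scaling and by edgeR. It was lost too in a single fit of all 5 groups, with replicate number as a block and with the 2-fold minimum. On the opposite strand *Ddit3* overlaps *Mars* (mean of 1780 normalized counts). The sources do not agree on the library kit and do not give whether the counting used strand, so *Ddit3* values are uncertain.

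The ER chaperones were among the most abundant of the 10 genes. *Hspa5*, the Hsp70 of the ER lumen (BiP), was at 21449, 16756 and 26565 normalized counts in MG WT, at 23767, 13490.5, 10841 and 16661 in MG N and at 13544, 15410.1, 13861 and 14699 in MG NP. The T N values were 38746, 41038, 47250.3 and 56359.7 and those of T NP 50286, 44105, 28250.3 and 46163. All 8 tumors were above all 11 glands, the lowest tumor being T NP replicate 3 and the highest gland MG WT replicate 3. *Hspa5* rose 2.92-fold in T N against MG N (log2 1.55 ± 0.26, adjusted p = 0.00153) and 2.87-fold in T NP against MG NP (log2 1.52 ± 0.20, adjusted p = 0.000389). Against MG WT it was not called in MG N (log2 -0.45, adjusted p = 0.19), where it passed without MG N replicate 1 (-0.66). It fell by 0.56 (adjusted p = 0.0334) in MG NP, which no longer passed without MG NP replicate 1 (-0.53), 3 (-0.55) or 4 (-0.57) or MG WT replicate 1 (-0.56) or 3 (-0.40), nor once the muscle score was in the fit (-0.70). This call was also lost by edgeR, in a single fit of all 5 groups and with replicate number as a block.

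*Hsp90b1*, the Hsp90 of the ER lumen (GRP94), followed *Hspa5* in tumors but not in MG WT. It was at 8436, 5722 and 9211 normalized counts in MG WT, at 16405, 11609, 10706 and 16001 in MG N and at 14287, 11405, 11095.5 and 12775 in MG NP. The T N values were 27119, 32579.6, 31419.7 and 36378 and those of T NP 31686, 30289, 17896 and 32098. The 3 MG WT libraries were the lowest, the tumors were above all glands, and T NP replicate 3 lay well below its group, as it did for *Hspa5*. *Hsp90b1* rose 2.36-fold in T N against MG N (log2 1.24 ± 0.20, adjusted p = 0.00113) and 2.21-fold in T NP against MG NP (log2 1.14 ± 0.22, adjusted p = 0.00242), and the latter no longer passed once the muscle score was in the fit (log2 1.08). It rose by 0.82 ± 0.22 (log2, adjusted p = 0.013) in MG N and by 0.69 ± 0.19 (adjusted p = 0.023) in MG NP against MG WT. The latter no longer passed without MG NP replicate 1 (0.62), MG WT replicate 1 (0.76) or MG WT replicate 2 (0.48), nor once the muscle score was in the fit (0.56) or with replicate number as a block. The ratio of *Hspa5* to *Hsp90b1* normalized counts, read only between groups because it is not corrected for length, was 2.54 to 2.93 in MG WT, 1.01 to 1.45 in MG N, 0.948 to 1.35 in MG NP, 1.26 to 1.55 in T N and 1.44 to 1.59 in T NP. MG WT stood apart from the other 4 groups in this ratio.

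The last 2 genes are outputs of the response. *Herpud1*, a membrane protein of ER-associated degradation, was at 1621, 2161 and 2025.5 normalized counts in MG WT, at 2009, 1948, 1722 and 2824 in MG N and at 2993, 3583, 2588 and 2896 in MG NP. The T N values were 4540.0, 2808, 4778 and 3532 and those of T NP 5021, 6987.5, 4038 and 5716. T NP was above all glands, whereas the lowest T N tumor was just below MG N replicate 4, so that T N and MG N overlapped. *Herpud1* rose 1.83-fold in T N against MG N (log2 0.87 ± 0.22, adjusted p = 0.00927) and 1.78-fold in T NP against MG NP (log2 0.83 ± 0.18, adjusted p = 0.0051). It also rose by 0.64 (log2, adjusted p = 0.0152) in MG NP against MG WT, which no longer passed without MG WT replicate 1 (0.52) or once the muscle score was in the fit (0.23).

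*Trib3*, a pseudokinase that is a target of ATF4 and CHOP and binds AKT, had the largest difference of the 10 genes between tumor and gland. It was at 117, 144.5 and 153 normalized counts in MG WT, at 191.1, 111.5, 109.9 and 101 in MG N and at 103, 133, 66.1 and 173 in MG NP. The T N values were 1539.5, 786, 1732 and 1941 and those of T NP 1290.5, 1510.2, 1083 and 1549.5. No gland exceeded 191.1 and no tumor was below 786. *Trib3* rose 11.4-fold in T N against MG N (log2 3.51 ± 0.32, adjusted p = 0.00012) and 11.9-fold in T NP against MG NP (log2 3.58 ± 0.29, adjusted p = 3.51e-05), the latter with a log2 of 4.44 once the muscle score was in the fit. Its ratio to *Atf4* normalized counts was 0.0178 to 0.0223 in MG WT, 0.0232 to 0.0780 in MG N and MG NP and 0.205 to 0.493 in tumors. The ratio to *Ddit3* was 0.230 to 0.734 in glands and 1.13 to 6.33 in tumors, so *Trib3* was higher relative to both factors in every tumor than in any gland.

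The first pair of comparisons set T N against MG N and T NP against MG NP. Cre and the p53 allele also differed between T N and 3 of the 4 MG N samples, and their part in any T N to MG N difference was not tested. In T N against MG N, 7 of the 10 genes were called higher and 0 lower, where 23.5% of the 17950 genes tested were called higher and 27.8% lower. In T NP against MG NP, 6 were called higher and 0 lower, where 26.2% of 17880 genes were called higher and 29.3% lower. *Hspa5*, *Hsp90b1*, *Xbp1*, *Eif2ak3*, *Herpud1* and *Trib3* were called in both, *Atf4* in T N only, and *Ddit3*, *Atf6* and *Ern1* in neither. The 10 genes had a median log2 fold change of 0.84 in T N against MG N (all genes tested, -0.05) and 0.81 in T NP against MG NP (all genes tested, -0.07). With a 2-fold minimum added, 4 of the 10 were called higher and 0 lower in each. Of all 17950 genes tested in T N against MG N, 2289 were then called higher and 4009 lower. In T NP against MG NP these were 2625 and 4300 of 17880. Once the muscle score was in the fit, 4 of the 10 were called higher and 0 lower in T NP against MG NP. Over all genes there, 2148 of 17880 were called higher and 2820 lower.

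Other genes of the pathway were read from 5 lists. Over all genes, 23.5% were called higher and 27.8% lower in T N against MG N (median log2 -0.05). In T NP against MG NP these shares were 26.2% and 29.3% (median -0.07). The 20 ER chaperones and folding enzymes had 14 called higher and 0 lower in T N against MG N (median log2 1.05) and 15 and 0 in T NP against MG NP (median 0.999). *Ero1l*, the oxidase that recharges protein disulfide isomerase, rose by 2.58 and 2.21 (log2, adjusted p = 0.00607 and 0.000149, limma), and *P4hb*, protein disulfide isomerase itself, by 1.46 and 1.71 (adjusted p = 0.000262 and 4.95e-05). *Sdf2l1* rose by 1.63 (adjusted p = 0.00479) in T N and *Ppib* by 1.52 (adjusted p = 0.000189) in T NP. The 14 genes of translocation and signal peptide processing had 11 and 12 called higher and 0 lower (medians 0.86 and 0.98), led by *Ssr2* of the translocon-associated complex, which rose by 1.86 and 1.96 (adjusted p = 0.000275 and 2.87e-05). *Sec11c* and *Spcs1* of the signal peptidase rose by 1.47 and 1.33 in T N, and the channel subunits *Sec61b* and *Sec61a1* by 1.51 and 1.34 in T NP.

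ER-associated degradation was mixed. Of 12 genes, 5 were called higher and 2 lower in T N against MG N (median 0.11), and 6 and 2 in T NP against MG NP (median 0.34). The shares over all genes were 23.5% and 27.8% in T N and 26.2% and 29.3% in T NP. *Sel1l*, the adaptor of the HRD1 ubiquitin ligase, was at 8375, 4989, 4654 and 6035 normalized counts in MG N, 13842, 32217, 12979.7 and 29183 in T N, 5023.5, 4902, 4308 and 4519.6 in MG NP and 22096, 23491, 14552.5 and 12927.5 in T NP. No tumor overlapped with a gland, and T N replicates 2 and 4, the pair with low *Xbp1*, were the highest. It rose by 1.79 in T N and 1.92 in T NP (adjusted p = 0.00288 and 0.00014, limma). The ligase itself, *Syvn1*, fell by 1.05 in T NP (adjusted p = 0.00735), and *Derl1* fell by 1.25 and 0.76 (adjusted p = 0.00044 and 0.00551). *Selenos* rose by 0.98 and 1.09, *Edem2* by 0.82 in T N and *Os9* by 1.27 in T NP. In T N against MG N, the call was lost for *Selenos* without MG N replicate 3 (0.89) or T N replicate 1 (0.82) or 3 (0.79).

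The shares of all genes called higher and lower were those given above for the 2 comparisons, 23.5% and 27.8% in T N and 26.2% and 29.3% in T NP. Of 22 targets of ATF4 and CHOP, 21 were tested, with 5 called higher and 0 lower in T N against MG N (median 0.23) and 5 and 1 in T NP against MG NP (median 0.28). *Slc7a5*, the large neutral amino acid transporter, was at 442, 270.1, 369 and 278 normalized counts in MG N, at 5901, 1576, 4033 and 2849 in T N and at 559.8 to 7380.6 in T NP. It rose by 3.27 (log2, adjusted p = 0.000277, limma) in T N against MG N. Its partner *Slc3a2* rose by 0.86 (adjusted p = 0.0197) and the asparaginyl-tRNA synthetase gene *Nars* by 1.06 and, in T NP, 1.01 (adjusted p = 0.000286 and 0.000351). *Ddit4* and *Nupr1* rose by 1.60 and 1.27 in T NP. *Chac1*, a glutathione-degrading enzyme, fell by 2.51 (adjusted p = 0.00702) in T NP against MG NP: it was at 275, 752, 81.2 and 263 in MG NP and at 59.4, 34.2, 53.3 and 36.2 in T NP. The MG NP libraries were the high ones, since MG N was at 41.2 to 56.3, and within MG NP the muscle sums given above were likewise highest in replicate 2 and lowest in replicate 3, whereas replicate 4 had more muscle RNA than replicate 1 and slightly less *Chac1*. With the muscle score in the fit *Chac1* was at -0.88 and not called, so its fall cannot be told apart from the muscle content of MG NP. Of the 16 other sensors and regulators, 15 were tested, with 6 called higher and 0 lower in T N and 6 and 1 in T NP (medians 0.37 and 0.36). *Tmbim6*, an ER membrane protein that restrains IRE1, rose by 1.41 and 1.88 (adjusted p = 0.00108 and 2.67e-05). *Eif2s1*, which encodes eIF2α, rose by 0.60 and *Mbtps1*, the protease that cleaves ATF6, by 0.52 in T N. In T NP, *Creb3l1* rose by 1.37 and *Eif2ak2* by 1.14, and *Eif2ak1* fell by 0.33. In T N against MG N, the call was lost for *Slc3a2* without MG N replicate 4 (0.80); *Eif2s1* without MG N replicate 2 (0.50) or 4 (0.58) or T N replicate 2 (0.44) or 4 (0.59). In T NP against MG NP, the call was lost for *Eif2ak1* without MG NP replicate 1 (-0.34), 2 (-0.29) or 4 (-0.31) or T NP replicate 1 (-0.33), 2 (-0.30), 3 (-0.35) or 4 (-0.34). With the muscle score in the fit the call was also lost there for *Ddit4* (0.15), *Nupr1* (1.57), *Creb3l1* (0.46), *Eif2ak2* (1.12) and *Eif2ak1* (-0.0944), and for *Sec61b* (0.69) and *Derl1* (-0.48) of the lists above, while *Syvn1* was at -1.78 and still called.

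**Figure D3:**
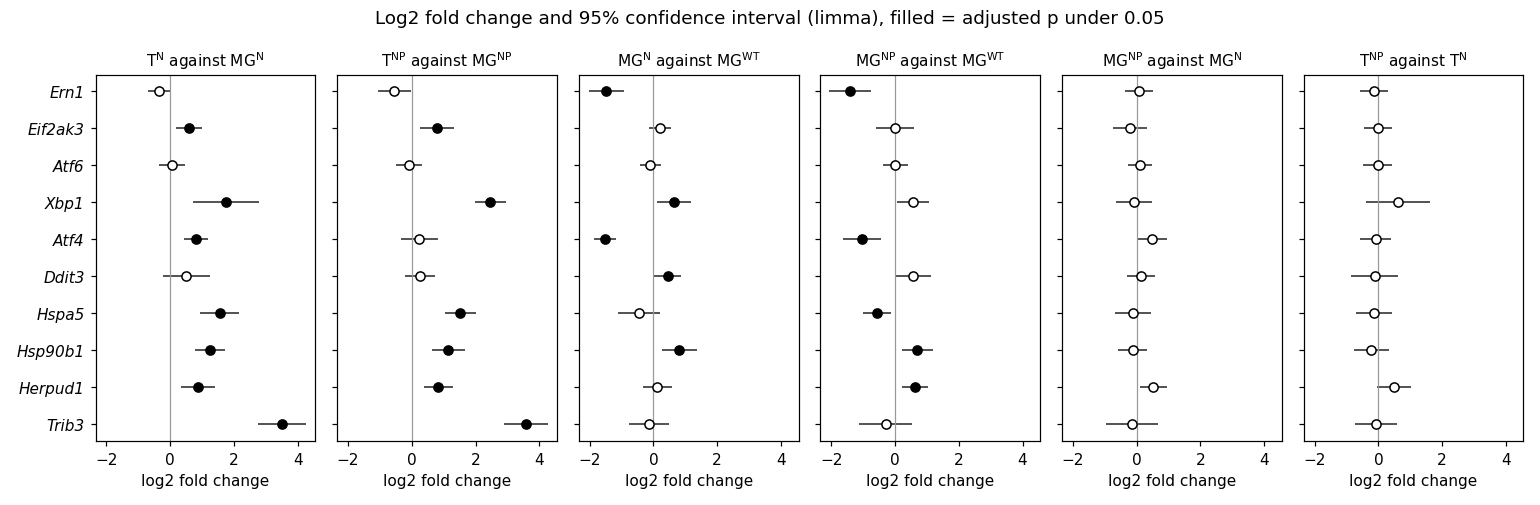
Log2 fold changes (points) with 95% confidence intervals (lines) of the 10 genes in 6 comparisons, filled where called by limma with an adjusted p under 0.05. *Trib3* was at 3.51 and 3.58 in the tumor to gland comparisons, and no gene was called in MG NP against MG N or in T NP against T N.

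The glands of tumor-bearing mice were compared with MG WT, which is shared by both comparisons and by those of tumors below. Of the 10 genes, MG N had 3 called higher than MG WT (*Hsp90b1*, *Xbp1*, *Ddit3*) and 2 lower (*Atf4*, *Ern1*), where 30.0% of 19017 genes were called higher and 29.2% lower. For MG NP the calls against MG WT were 2 higher (*Hsp90b1*, *Herpud1*) and 3 lower (*Hspa5*, *Atf4*, *Ern1*), where 22.4% of 19065 were called higher and 24.0% lower. Both counts were near the background, and the median log2 fold changes of the 10 genes were 0.01 and -0.00 beside 0.02 and 0.02 over all genes tested. With the muscle score in the fit, 1 of the 10 genes remained called in MG NP against MG WT, where 1135 of 19065 genes were called higher and 1461 lower. The counts moved with single libraries. Of the 10, 3 were called in MG N against MG WT without MG N replicate 4 (all genes, 5200 higher and 5235 lower of 18698). In MG NP against MG WT without MG WT replicate 1, 2 were called (all genes, 2815 higher and 3281 lower of 19770).

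Some stress-induced genes of the pathway were high in MG WT. Of the 21 tested targets of ATF4 and CHOP, MG N had 7 called higher and 8 lower (30.0% and 29.2% of all genes), MG NP 8 and 5 (22.4% and 24.0% of all genes), with medians of -0.13 and -0.20. *Atf3*, a stress-induced transcription factor that is also an immediate-early gene, was at 17126, 25372 and 25498 normalized counts in MG WT, against 150.3, 355, 328 and 111 in the MG N libraries, with MG NP at 171.7, 639.5, 328 and 147. It fell by 6.72 and 6.36 (log2, adjusted p = 8.27e-06 and 0.000181, limma). *Ppp1r15a*, the phosphatase subunit that reverses eIF2α phosphorylation, fell by 3.72 and 3.26 and *Gdf15* by 4.44 and 4.98. These 3 genes were high in the same libraries as the immediate-early list, and whether they followed handling or the unfolded protein response was not tested. *Vldlr* and *Phgdh* were higher in MG N (2.45 and 2.21) and MG NP (2.57 and 2.08), *Psat1* in MG N (1.93) and *Chac1* in MG NP (3.60), and once the muscle score was in the fit *Vldlr* was at -0.31 and *Gdf15* at -2.98 in MG NP, and *Chac1* (0.50) and *Phgdh* (3.09) were no longer called there.

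Over all genes, MG N had 30.0% called higher and 29.2% lower, MG NP 22.4% and 24.0%. Of the 20 ER chaperones and folding enzymes, MG N had 9 called higher and 1 lower, MG NP 5 and 2 (medians 0.47 and 0.24). *Fkbp2* was higher by 2.07 and 1.93 (adjusted p = 2.7e-05 and 0.000603, limma) and *Creld2* by 1.23 and 1.48, *Pdia4* by 1.08 in MG N and *Dnajb11* by 0.98 in MG NP. *Dnajb9*, an ER J-protein and a known target of XBP1, fell by 1.17 and 0.94, and *Ero1l* by 0.70 in MG NP. For degradation the counts of 12 genes were 6 higher and 0 lower in MG N (median 0.56) and 4 and 1 in MG NP (median 0.28). Examples were *Derl1* (1.35 and 0.85), *Derl2* (0.66 in MG N) and *Derl3* (1.92 in MG NP). For translocation the counts of 14 genes were 3 and 1 in MG N (median 0.20) and 3 and 3 in MG NP (median 0.10), with *Sec11c* (0.81 and 1.0004), *Ssr4* (0.37 and 0.46) and, in MG NP, *Sec61g* (0.58) higher, and *Sec63* (-0.74 and -0.85) and, in MG NP, *Sec24d* (-0.75) and *Ssr1* (-0.49) lower. Of 15 other sensors and regulators tested, MG N had 2 called higher and 7 lower, MG NP 1 and 5 (medians -0.35 and -0.44). *Creb3l2* fell by 1.53 and 1.65, *Atf6b*, the paralog of *Atf6*, by 1.07 and 0.96, *Wfs1* by 0.95 in MG N and *Mbtps2* by 0.81 in MG NP, whereas *Creb3* rose by 0.67 and 0.59 and *Eif2ak2* by 0.74 in MG N. With the muscle score in the fit, *Atf6b* was at 0.09 in MG NP against MG WT, and the call was lost for *Dnajb11* (1.1996), *Ero1l* (-0.77), *Derl1* (0.23), *Derl3* (3.10), *Ssr4* (0.79), *Sec61g* (0.29), *Sec24d* (-0.16), *Ssr1* (-0.69) and *Creb3* (0.64). Still called there, with a larger difference, were *Dnajb9* (-2.40), *Creld2* (2.31), *Sec11c* (2.24) and *Mbtps2* (-1.40). Comparing MG N to MG WT, the call was lost for *Creld2* without MG WT replicate 2 (0.98); *Ssr4* without MG N replicate 3 (0.35) or 4 (0.31) or MG WT replicate 1 (0.41), 2 (0.28) or 3 (0.42). In MG NP against MG WT, the call was lost for *Dnajb9* without MG NP replicate 1 (-0.91) or MG WT replicate 1 (-0.98), 2 (-0.96) or 3 (-0.87); *Derl3* without MG WT replicate 1 (1.78) or 2 (1.89); *Atf6b* without MG WT replicate 1 (-0.87) or 3 (-0.87). There, the call was lost for *Ssr4* without MG NP replicate 1 (0.37), 2 (0.51) or 3 (0.43) or MG WT replicate 1 (0.50), 2 (0.37) or 3 (0.51); *Sec61g* without MG NP replicate 1 (0.61), 2 (0.56), 3 (0.63) or 4 (0.53) or MG WT replicate 1 (0.55) or 2 (0.40); *Sec11c* without MG NP replicate 1 (0.83) or MG WT replicate 1 (1.03), 2 (0.94) or 3 (1.02). Also, the call was lost for *Sec24d* without MG WT replicate 1 (-0.77) or 3 (-0.69); *Ssr1* without MG NP replicate 2 (-0.48), 3 (-0.43) or 4 (-0.50) or MG WT replicate 1 (-0.47) or 3 (-0.37).

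Against MG WT, tumors differed in most of the 10 genes. In T N against MG WT, 6 were called higher and 2 lower, where 25.7% of 18236 genes were called higher and 30.6% lower. In T NP against MG WT, 7 were called higher and 2 lower, where 32.7% of 18233 were called higher and 37.0% lower. *Trib3* (log2 3.36 and 3.28), *Xbp1* (2.40 and 3.02), *Hsp90b1* (2.05 and 1.84), *Hspa5* (1.10 and 0.96), *Herpud1* (0.99 and 1.47) and *Eif2ak3* (0.79 and 0.78) were higher in both. *Ern1* (-1.82 and -1.95) and *Atf4* (-0.71 and -0.79) were lower in both, the latter no longer called in T N without MG WT replicate 3 (-0.55). *Ddit3* was called in T NP (0.84, adjusted p = 0.0033, limma) and not in T N (0.96, adjusted p = 0.0529), where it passed without T N replicate 1 (1.13) or 3 (1.14). The medians of the 10 genes were 0.98 and 0.90 beside -0.09 and -0.08 over all genes tested.

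The 5 lists were also counted against MG WT, beside all genes with 25.7% called higher and 30.6% lower in T N and 32.7% and 37.0% in T NP. ER chaperones and folding enzymes had 17 of 20 called higher and 0 lower in both T N and T NP (medians 1.64 and 1.52), with *Fkbp2* at 2.81 and 2.34, *Sdf2l1* at 2.47 and 2.37 and *Creld2* at 2.43 and 2.37. Degradation had 7 higher and 2 lower and 8 and 1 of 12 (medians 0.77 and 0.84), with *Derl3* at 3.88 and 3.97, *Sel1l* at 2.30 and 2.11, *Selenos* at 1.61 and 1.68 and *Syvn1* at -1.01 and -1.55. Translocation had 10 and 0 and 12 and 2 of 14 (medians 1.01 and 1.11), with *Sec11c* at 2.28 and 2.10, *Ssr2* at 2.17 and 2.06, *Spcs1* at 1.59 in T N, and *Sec61b* at 1.60 and *Sec63* at -0.35 in T NP. Targets of ATF4 and CHOP had 8 and 6 and 7 and 5 of 21 (medians 0.34 and 0.30), where *Vldlr* (3.11 and 2.52), *Psat1* (2.11 and 1.80) and *Asns* (1.81 and 1.79) were higher and *Atf3* (-6.23 and -5.91), *Gdf15* (-4.09 and -3.81) and *Ppp1r15a* (-2.92 and -3.26) lower. Other sensors and regulators had 5 and 4 and 6 and 6 of 15 (medians 0.14 and -0.07), with *Creb3* at 1.0016 and 1.59, *Eif2ak2* at 1.67 and 1.27, *Tmbim6* at 0.86 and 1.34, *Creb3l2* at -1.40 and -1.69, *Wfs1* at -0.79 and -0.89 and *Atf6b* at -0.83 and -0.72. In T N against MG WT, the call was lost for *Psat1* without T N replicate 2 (1.80) or 4 (1.87) or MG WT replicate 2 (1.46); *Eif2ak2* without MG WT replicate 2 (1.65); *Creb3* without MG WT replicate 1 (0.97), 2 (1.01) or 3 (1.02); *Tmbim6* without MG WT replicate 1 (0.80) or 2 (0.87); *Wfs1* without T N replicate 1 (-0.76) or MG WT replicate 1 (-0.74) or 3 (-0.71). In T NP against MG WT, the call was lost for *Sec63* without MG WT replicate 1 (-0.36) or 3 (-0.32).

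The last 3 comparisons set *NP* against *N*. MG N replicates 2, 3 and 4 lacked Cre, whereas MG N replicate 1 and all T N samples had Cre and lacked the p53 allele. Most gland samples of *N* thus differed from *NP* in Cre, and the tumors in the p53 allele. The part of each in these comparisons was not tested. In MG NP against MG N, limma called 0 of the 10 genes, where 0.00% of 18563 genes were called, and at an unadjusted p under 0.05 there were 2 of the 10 (*Atf4* and *Herpud1*) and 1950 of 18563. *Herpud1* had a log2 fold change of 0.52 (95% confidence interval 0.12 to 0.92, adjusted p = 0.361 by limma) and *Atf4* of 0.49 (0.05 to 0.93, adjusted p = 0.419). The groups of both genes overlapped in normalized counts, but by RPKM those of *Atf4* did not (39.0 to 42.0 in MG N, 46.0 to 56.5 in MG NP). With the muscle score in the fit *Atf4* was at 0.0957 and *Herpud1* at 0.50. *Trib3*, at -0.15 without that score, was at -0.97 with it, and none of these genes was called. DESeq2 called 473 genes higher and 257 lower there, and edgeR called 0, and neither called any of the 10. Without MG NP replicate 3, limma called 299 genes higher and 27 lower, again none of the 10. In T NP against T N, limma called 0 of the 10, where 0.0421% of 16638 genes (7 genes) were called, and at an unadjusted p under 0.05 there were 0 of the 10 and 1210 of 16638 (7.27%). DESeq2 called 80 higher and 40 lower and edgeR 0, again with 0 of the 10, and limma called 41 higher and 18 lower without T N replicate 1 and 0 without any other library. The widest differences were those of *Xbp1* (log2 0.62, 95% confidence interval -0.34 to 1.58) and *Herpud1* (0.48, -0.02 to 0.98), so differences of more than 2-fold were within the interval for *Xbp1*. The confidence intervals of the other 8 genes lay between -0.82 and 0.58. For the tumor to gland difference of *NP* against that of *N*, limma called 0 of the 10 and 0.00% of 19367 genes, with 1536 genes and 0 of the 10 at an unadjusted p under 0.05. DESeq2 called 83 higher and 285 lower there and edgeR 0, with 0 of the 10 in both. Without MG NP replicate 3 limma called 195 genes, 12 of them higher and the others lower, without MG NP replicate 4 2 genes higher and 0 lower and without T N replicate 1 17 and 6, in each case none of the 10. No gene of the 5 lists was called by limma in any of these 3 comparisons, and at an unadjusted p under 0.05 there were 9, 4 and 6 of their 82 tested genes, beside 10.5%, 7.27% and 7.93% of all genes tested.

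Likeness to *Hspa5* and to *Ddit3* was read across the 19 samples. After each gene's group means had been subtracted, the 5 genes most like *Hspa5* among 14832 genes with a mean of at least 50 normalized counts were *Hsp90b1* (Pearson r = 0.859 over 19 samples), *Pdia6* (0.855), *Hyou1* (0.854), *Pdia3* (0.822) and *Dnajc3* (0.81). *Atf6* was the next of the 10 genes, at rank 52 (r = 0.652), and *Xbp1* stood at rank 2529 (r = 0.245). All 5 top genes belong to the members or the chaperone list. Without that subtraction, where tumor and gland groups form separate clusters and drive the value, the first 5 for *Hspa5* were *Srp72* (0.951), *Cspg5* (0.95), *A130010J15Rik* (0.943), *Socs2* (0.942) and *Sec23b* (0.942), and *Trib3* was at rank 23 (0.928). For *Ddit3* after subtraction, genes with a high r included *Gm37084* (0.906), *Ifi27l2a* (0.88), *Pcdhgb7* (0.863) and *Npc2* (0.858), and before it the first 5 were *Dnpep* (0.902), *Vdac2* (0.894), *Fam162a* (0.879), *Gm7160* (0.857) and *Dnajc24* (0.856). After subtraction *Ddit3* and *Xbp1* ran opposite (r = -0.758), which the 4 T N tumors show in their values above, and *Ddit3* and *Hspa5* were unrelated (r = 0.063). These values describe 19 samples, the 3 of MG WT sequenced deeper than the rest, and were not tested.

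The genes lie on 7 chromosomes of GRCm38. *Ern1* (ENSMUSG00000020715) is at chr11:106394650-106487852 (minus strand), *Eif2ak3* (ENSMUSG00000031668) at chr6:70844515-70905245 (plus), *Atf6* (ENSMUSG00000026663) at chr1:170704674-170867771 (minus), *Xbp1* (ENSMUSG00000020484) at chr11:5520659-5525893 (plus) and *Atf4* (ENSMUSG00000042406) at chr15:80255184-80257541 (plus). *Ddit3* (ENSMUSG00000025408) is at chr10:127290774-127296288 (plus), *Hspa5* (ENSMUSG00000026864) at chr2:34771970-34777547 (plus), *Hsp90b1* (ENSMUSG00000020048) at chr10:86690209-86705509 (minus), *Herpud1* (ENSMUSG00000031770) at chr8:94386438-94395377 (plus) and *Trib3* (ENSMUSG00000032715) at chr2:152337422-152344032 (minus).

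The promoters of the 10 genes were searched on both strands for motifs that the factors of the response are known to bind. Genes and motifs were both chosen as known parts of this response, so the matches do not depend on the tumor values. Promoters of 300 bases (250 before and 50 after the gene start) came from RefSeq (GRCm38.p6), and 9 of the 10 genes matched, the missing one being *Atf6*. The ER stress element (ERSE) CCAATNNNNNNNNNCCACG, bound by ATF6 and XBP1 with NF-Y, was found in 39 of 32851 promoters (0.119%), among them *Hspa5* with 1 match starting 65 bases before the gene start and *Hsp90b1* with 2, starting 212 bases before it and, on the opposite strand, 107 bases before it. ERSE-II, in which 1 base of any kind lies between ATTGG and CCACG, was found in 12 promoters (0.0365%), among them *Herpud1* at 52 bases before the start. The core of the ATF4 and CHOP element (CARE), TGATGNAA, was in 1304 promoters (3.97%), among them *Herpud1* at 112 bases before and *Trib3* at 14 bases after the start, both on the opposite strand. The XBP1 element core TGACGTGG was in 222 promoters (0.676%) and in none of the 9. The block CCACG, which is part of both ERSE forms, was in 10765 promoters (32.8%): inside the matches of *Hspa5*, *Hsp90b1* and *Herpud1*, at 1 further site of *Herpud1*, and in *Atf4* (2 matches) and *Ern1* (1 match). *Xbp1*, *Ddit3* and *Eif2ak3* held none of these letters in their windows. The 4 promoters with a match are printed 5′ to 3′ on the strand of the gene, with matches to ERSE, ERSE-II or CARE in capitals. A match describes the sequence and shows no binding.
Hspa5, chr2:34771840-34772139, plus strand: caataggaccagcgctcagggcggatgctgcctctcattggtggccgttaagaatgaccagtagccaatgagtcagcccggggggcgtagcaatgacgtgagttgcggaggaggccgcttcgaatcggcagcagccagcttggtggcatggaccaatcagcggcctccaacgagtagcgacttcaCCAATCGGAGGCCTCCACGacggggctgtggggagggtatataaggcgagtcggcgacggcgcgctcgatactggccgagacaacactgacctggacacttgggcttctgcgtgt
Hsp90b1, chr10:86705395-86705694, minus strand: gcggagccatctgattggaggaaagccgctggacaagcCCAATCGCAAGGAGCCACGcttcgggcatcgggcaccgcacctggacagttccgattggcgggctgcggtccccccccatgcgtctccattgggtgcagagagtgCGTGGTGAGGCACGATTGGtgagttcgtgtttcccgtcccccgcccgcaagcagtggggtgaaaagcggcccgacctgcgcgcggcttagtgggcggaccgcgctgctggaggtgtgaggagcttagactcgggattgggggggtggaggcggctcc
Herpud1, chr8:94386179-94386478, plus strand: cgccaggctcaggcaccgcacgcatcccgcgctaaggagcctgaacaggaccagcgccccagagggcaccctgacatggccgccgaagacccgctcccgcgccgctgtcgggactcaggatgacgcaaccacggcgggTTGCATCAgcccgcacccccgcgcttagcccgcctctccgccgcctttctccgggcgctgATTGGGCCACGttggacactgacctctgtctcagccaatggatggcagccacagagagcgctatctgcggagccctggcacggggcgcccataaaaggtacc
Trib3, chr2:152344011-152344310, minus strand: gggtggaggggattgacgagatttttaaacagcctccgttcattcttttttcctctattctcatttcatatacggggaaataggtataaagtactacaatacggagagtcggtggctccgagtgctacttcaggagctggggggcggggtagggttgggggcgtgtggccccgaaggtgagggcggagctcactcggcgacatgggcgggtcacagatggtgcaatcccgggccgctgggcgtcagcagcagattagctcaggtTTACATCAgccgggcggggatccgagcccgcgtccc

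**Figure D4:**
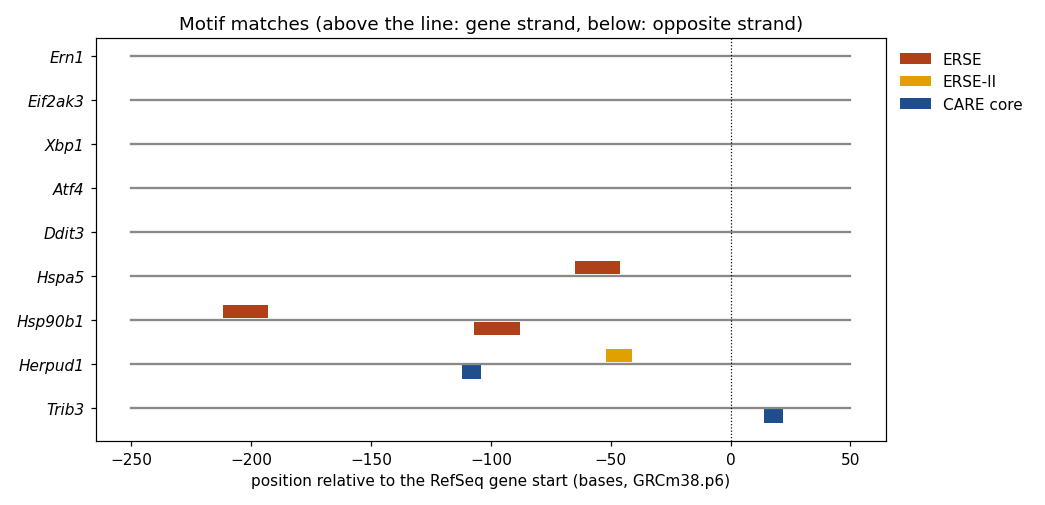
Positions of motif matches (bars) in the 300-base promoters of the 9 matched genes, in bases relative to the RefSeq gene start, above the line for the strand of the gene and below it for the opposite strand. *Hsp90b1* held 2 ERSE matches, *Hspa5* 1, *Herpud1* 1 ERSE-II and 1 CARE match and *Trib3* 1 CARE match.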

How the data were processed

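The deposited table holds signal, gene counts that the authors divided by DESeq2 size factors after aligning paired-end HiSeq reads to GRCm38 with TopHat2 2.1.1 and Bowtie2. The counting tool, its use of strand and the annotation are not stated. Values are per gene (46078 genes) in 19 libraries, 1 column each. Whole reads were recovered from the steps between values within a tolerance of 0.05 (in T N replicate 3, with a step close to 1, this is not claimed on its values alone), with size factors of 0.7006 to 1.0648, and of 1.9354 to 2.3449 in MG WT. Gene models and lengths matched 45229 genes, and 849 did not match.

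Groups were compared 2 at a time with limma 3.58.1 (R 4.3.3, trended variance) on log2(normalized counts + 1), with the tumor to gland difference of *NP* against that of *N* (below, the difference between genotypes) as a contrast of 4 groups. Genes needed 10 normalized counts in 3 samples where MG WT took part and otherwise in 4, p values were adjusted over all genes tested by the Benjamini-Hochberg method, and an adjusted p under 0.05 counted as called. Named pathway genes are, per list and comparison, the called genes without overlap of the groups that had the largest fold changes, at most 3 higher and 3 lower (some named by this rule or by likeness are not reported here), and genes given with values in every sample beyond the 10 were chosen after their values were seen. The members and lists were chosen with earlier results of these data known. Alternatives were pseudocounts of 0.5 and 5, no filter, a mean of at least 50, TMM scaling, edgeR 4.0.16 quasi-likelihood and DESeq2 1.42.0 on recovered reads, a 2-fold minimum, a single fit of 5 groups, a block by replicate number, the mean of T NP replicates 1 and 2 as 1 sample, every sample omitted once, and the mean log2 level of the muscle markers as a covariate. RPKM used recovered reads and merged exon lengths. Tables were handled in python 3.11.15 with numpy 2.4.6 and pandas 2.3.3.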

Additional observations from a re-analysis of the deposited data

Results flagged for a closer look

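Within groups of 4, 4 values of the 10 genes lay far from the other 3 samples, as judged by the gap to the nearest sample divided by the range of the group against Dixon's 95% critical value. *Hsp90b1* in T NP replicate 3 was 17895.8 normalized counts, against 30288.6 to 32097.8 in the other T NP tumors. In T N replicate 3, *Atf4* was 5571.4 against 3784.5 to 4032.3, and *Atf6* was 3566.8 against 2397.0 to 2564.1. *Trib3* in MG N replicate 1 was 191.1, against 100.9 to 111.5, and this library is the MMTV-neu;Fsp-Cre one of its group. Of 40 groups tested, 4 met the rule, and chance flags about 1 in 20 groups. MG WT, with 3 samples, was not tested.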

How the results depend on the processing

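Over all alternatives, the called differences of the 10 genes kept direction and call in 662 cases, kept direction but lost the call in 56 and turned in 1. Those not called kept both in 919, gained the call in 18 and turned in 74. Named pathway genes kept both in 2067, lost the call in 141 and turned in 2. The called members in MG N against MG WT numbered 3 in the single fit of 5 groups, where 4584 of all 19017 genes were called higher and 4456 lower. They numbered 3 with the replicate block (all genes, 4972 and 4818) and 2 with the 2-fold minimum (3636 and 3401). On leaving out each sample they numbered 3 to 5. Of the 18654 to 19586 genes tested, 4899 to 5416 were then called higher and 4602 to 5493 lower. In MG NP against MG WT the called members were 6 with TMM, 7 with DESeq2, 2 with the 2-fold minimum and 1 with the muscle covariate. Over all 19065 genes, 4304, 5508, 3136 and 1135 were called higher in these settings and 4500, 4954, 3081 and 1461 lower. On leaving out each sample 2 to 5 members were called. Of the 18589 to 19840 genes tested, 2815 to 4341 were then called higher and 3281 to 4694 lower. The called members were 8 in T N against MG N with DESeq2 (all genes, 4904 higher and 5145 lower of 17950). They were 7 in T NP against MG NP in the single fit (all genes, 4926 and 5679 of 17880). In T N against MG WT they were 9 with TMM, edgeR, DESeq2 and the single fit. Over all 18236 genes there, 4972, 5113, 5519 and 5150 were called higher and 5344, 5069, 5528 and 6053 lower. With the 2-fold minimum the called members were 4 in T N against MG N (all genes, 2289 higher and 4009 lower of 17950). They were 5 in T N against MG WT (3181 and 4564 of 18236) and 5 in T NP against MG WT (3611 and 5099 of 18233). The following log2 fold changes turned, and the cause was not tested. With the replicate block: *Herpud1* in MG N against MG WT -0.0247, and in MG NP against MG WT *Atf6* -0.077 and *Eif2ak3* 0.10. With the muscle covariate in MG NP against MG WT: *Atf6b* 0.0925, *Vldlr* -0.31, *Atf6* -0.55 and *Eif2ak3* 1.12. With it in T NP against MG NP: *Atf6* 0.0634 and *Eif2ak3* -0.0325; in MG NP against MG N: *Ddit3* -0.0135, *Atf6* -0.17 and *Eif2ak3* 0.29; in the difference between genotypes: *Atf6* 0.0778, *Eif2ak3* -0.077 and *Herpud1* 0.14. By TMM, edgeR and DESeq2, *Eif2ak3* in MG NP against MG WT was 0.0174, 0.0568 and 0.0558. By edgeR, *Atf6* in T N against MG WT was 0.0156. In the difference between genotypes *Hspa5* was 0.0742 by edgeR and 0.0518 by DESeq2, and *Trib3* was -0.002 by edgeR and -0.0282 by DESeq2. On leaving out each sample, log2 fold changes that turned ranged as follows. MG N against MG WT: *Herpud1* -0.0247 to 0.21. MG NP against MG WT: *Atf6* -0.077 to 0.10, *Eif2ak3* -0.17 to 0.13. T N against MG N: *Atf6* -0.0908 to 0.11. T NP against MG NP: *Atf6* -0.19 to 0.0328. MG NP against MG N: *Xbp1* -0.20 to 0.10, *Ern1* -0.0387 to 0.21, *Hspa5* -0.28 to 0.0937, *Trib3* -0.36 to 0.10. T NP against T N: *Ddit3* -0.31 to 0.14, *Atf6* -0.12 to 0.11, *Hspa5* -0.23 to 0.0444, *Eif2ak3* -0.14 to 0.0774, *Trib3* -0.36 to 0.0715, *Atf4* -0.21 to 0.0453. T N against MG WT: *Atf6* -0.19 to 0.0192. T NP against MG WT: *Atf6* -0.17 to 0.034. Difference between genotypes: *Hsp90b1* -0.19 to 0.11, *Ddit3* -0.43 to 0.0206, *Atf6* -0.23 to 0.0053, *Hspa5* -0.23 to 0.16, *Herpud1* -0.19 to 0.0925, *Trib3* -0.22 to 0.28. Averaging T NP replicates 1 and 2 left 6 members called against MG NP (all genes, 4195 higher and 5128 lower of 18596). Against MG WT, 7 members were then called higher and 2 lower (all genes, 5698 and 6598 of 18018).

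Replicate numbers are not stated to pair animals. With them as a block, 3, 4, 6, 6, 0, 0, 8 and 9 members were called in MG N and MG NP against MG WT, T N against MG N, T NP against MG NP, MG NP against MG N, T NP against T N, and T N and T NP against MG WT. Over all genes in this order, 4972, 2979, 3444, 4210, 0, 0, 3668 and 5624 were called higher. Called lower were 4818, 3525, 4299, 4802, 0, 0, 4675 and 6517. The genes tested were 19017, 19065, 17950, 17880, 18563, 16638, 18236 and 18233. In the same order, 0 of 3, 0 of 3, 2 of 4, 0 of 4, 1 of 4, 0 of 4, 0 of 3 and 3 of 3 numbers correlated best with their own number, a hint from the data and not the design. Correlations of the same number ranged from -0.28 to 0.319. The muscle covariate moved the genes called in MG NP against MG WT from 4268 higher and 4585 lower to 1135 and 1461, and in T NP against MG NP from 4689 and 5240 to 2148 and 2820. Groups of 3 and 4 samples, the depth of MG WT and its different marker profile limit these comparisons.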
